A study of Mus musculus with 6 samples.

Results

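The genes described here encode the subunits of the mitochondrial respiratory chain and of ATP synthase. They were chosen by symbol from the gene count matrix, as every row beginning with *Nduf* (families a, b, c, s and v), *Sdha* to *Sdhd*, *Uqcr*, *Cox4* to *Cox8*, *Atp5* or the mitochondrial *mt-Nd*, *mt-Co*, *mt-Cytb* and *mt-Atp* names. This gave 102 of the 55401 genes, 13 encoded in mitochondrial DNA and 89 in the nucleus. Complex I had 38 nuclear and 7 mitochondrial genes, complex II 4 nuclear genes, complex III 8 and 1, complex IV 21 and 3, and complex V (ATP synthase) 18 and 2. The rule also took in 4 processed pseudogenes (*Cox6c2*, *Ndufs6b*, *Ndufa11b* and *Ndufb4c*), the supercomplex factor *Cox7a2l*, the paralog *Ndufa4l2* and a read-through gene that carries the symbol *Atp5o*, and it left out some subunits with other names, such as *Cyc1* and *Ndufab1*. *Ndufa4* was placed in complex IV, of which its protein is now known to be a subunit.

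RNA was sequenced from C2C12 cells 2 d post differentiation, in 3 Control and 3 *Phf2* KO libraries. C2C12 is a line of mouse myoblasts, and lowering the serum makes its cells fuse and form myotubes. PHF2 is a histone demethylase that acts on dimethylated lysine 9 of histone H3. *Phf2* KO cells were a sorted pool, not a clone, that had received 4 pooled plasmids with Cas9, a fluorescent reporter and guide RNAs against *Phf2*. Control cells, labelled wild type, were a pool sorted after a plasmid of the same kind without a specific guide. Each group came from 1 pool and its replicates were wells of 1 experiment, so p-values measure the spread between wells, and a difference between the pools cannot be told apart from an effect of *Phf2*.

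The respiratory chain passes electrons from NADH and succinate to oxygen. Complex I oxidizes NADH, complex II oxidizes succinate and is also an enzyme of the citric acid cycle, complex III moves electrons from ubiquinol to cytochrome c, and complex IV hands them to oxygen. The proton gradient made by complexes I, III and IV drives ATP synthase. Complex II is encoded in the nucleus alone, while the other complexes combine nuclear subunits with some translated inside the organelle. Muscle is rich in these complexes, and heart and skeletal muscle use their own isoforms of several complex IV subunits, such as *Cox6a2*, *Cox7a1* and *Cox8b*.

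*Phf2* itself was measured at 102, 95.5 and 105 CPM (counts scaled to library size by TMM) in the Control libraries, given here and below in the order of replicates 1, 2 and 3, and at 41.1, 37.6 and 38.6 CPM in the *Phf2* KO libraries. The transcript thus remained at 38.8% of Control (log2 fold change −1.37, SE 0.06, adjusted p = 8.32e-09, edgeR quasi-likelihood test with Benjamini-Hochberg adjustment). Libraries held between 52526109 and 67502788 estimated counts. The 10 markers of myotubes were all lower in *Phf2* KO, 7 of them past the threshold of an adjusted p of 0.05, and summed to 9036 to 10620 CPM in Control against 7262 to 8145 CPM in *Phf2* KO. Of 9 markers of undifferentiated or cycling myoblasts, 8 were higher and 2 passed (*Ccnd1* and *Id2*), with sums of 352.7 to 396.5 CPM against 437.4 to 449.3 CPM. The part of this difference in the results below was not tested, and in bulk RNA fewer cells of a type and less RNA per cell cannot be told apart. Markers of adipocytes summed to at most 6.59 CPM (*Plin1* and *Lep* at 0), of leukocytes to at most 2.26 CPM (*Adgre1* at 0) and of endothelial cells to at most 0.79 CPM. Of 6 osteoblast markers *Ibsp* was at 0 and 3 were tested, 2 of them higher and 1 lower in *Phf2* KO. Only *Runx2* passed (log2 fold change 0.31, adjusted p = 0.00697, edgeR). The osteoblast markers summed to 52.3 to 58.9 CPM in Control and 65.1 to 71.2 CPM in *Phf2* KO.

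Many nuclear genes of the respiratory chain have a binding site of NRF1, nuclear respiratory factor 1, or of ETS-family factors such as GABP near their start. The 250 bases before the RefSeq start (GRCm38.p6) were searched on both strands for GCGCA and GCGC parted by any 1 base, the core of the NRF1 motif, and CCGGAAG, an ETS motif, and for CAGCTG, the E-box bound by MyoD and myogenin. Of 88 nuclear symbols, 68 matched, with 73 windows. The NRF1 letters were in 14 of these 73 windows (19.2%, against 3.74% of all 32851 windows), the ETS letters in 12 (16.4% against 6.91%) and the E-box letters in 6 (8.22% against 13%). The following 30 bases around the NRF1 match are shown for *Ndufs6*, the one member that passed the threshold, and for *Sdha* and *Sdhd* of complex II, with the match in capitals and each read 5′ to 3′ on the strand of the gene.
Ndufs6, chr13:73328483-73328512, minus strand: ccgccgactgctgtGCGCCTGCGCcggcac
Sdha, chr13:74350319-74350348, minus strand: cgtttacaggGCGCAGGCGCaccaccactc
Sdhd, chr9:50603909-50603938, minus strand: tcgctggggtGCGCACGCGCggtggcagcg

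The *Ndufs6* match begins 16 bases before the RefSeq start. It lies inside the *Ndufs6* gene of GENCODE, which begins farther out, at chr13:73328542, and so is not upstream of that start. The *Sdha* window holds 3 matches, the outermost of which is shown, and the *Sdhd* window holds 1 match and, 46 bases before the start, 1 ETS match. *Sdhb* has none of the 3 motifs in its window. Exons of a neighbour, *Mrpl36*, *Ccdc127* and *Timm8b* respectively, also lie in the *Ndufs6*, *Sdha* and *Sdhd* windows. For the isoform pair of complex IV subunit 8 the whole windows are shown, since one gene is expressed in nearly all tissues and the other mainly in muscle, heart and brown fat, and the E-box is in capitals.
Cox8a, chr19:7217617-7217866, minus strand: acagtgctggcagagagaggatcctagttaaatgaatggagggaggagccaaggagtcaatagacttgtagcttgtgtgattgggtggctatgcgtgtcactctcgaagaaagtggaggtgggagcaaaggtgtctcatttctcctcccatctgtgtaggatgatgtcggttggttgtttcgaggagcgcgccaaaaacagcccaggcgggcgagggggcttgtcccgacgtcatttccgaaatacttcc
Cox8b, chr7:140900447-140900696, minus strand: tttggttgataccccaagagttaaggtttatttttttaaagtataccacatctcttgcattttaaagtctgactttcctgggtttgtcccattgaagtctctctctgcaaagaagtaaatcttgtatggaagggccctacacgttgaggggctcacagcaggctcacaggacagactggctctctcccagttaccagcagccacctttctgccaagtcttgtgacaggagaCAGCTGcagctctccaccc

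The *Cox8a* window holds none of the 3 motifs and the *Cox8b* window only the E-box, 19 bases before the start. A match is a description of letters, and no binding was measured here.

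Of the 102 genes, 96 had enough counts to be tested. One of them, the complex I subunit *Ndufs6*, passed the threshold and was lower in *Phf2* KO, and none was higher. Over all 17310 genes tested, 6.48% passed the threshold, 3.26% lower and 3.22% higher. With the replicate number as a block, 8 of the 96 passed, all lower (*Ndufs6*, *Ndufs4*, *Sdhd*, *Uqcrfs1*, *Uqcrb*, *Uqcr11*, *Cox6a2* and *Cox8b*), beside 7.6% of all genes in that fit, 3.86% lower. Differences were small but leaned to one side. The log2 fold change was below 0 for 78 of the 96 members, against 50.2% of all genes, and its median was −0.06 against a median of −0.001 over all genes. An unadjusted p under 0.05 was found for 22 members lower and 1 higher (24% of members, 19.4% of all genes). All *Phf2* KO libraries lay under all Control libraries for 18 members (18.8%, against 12.2% of all genes), and above them for 1 (*mt-Co1*; 12.9% of all genes). For 78 of the 96 members the 95% confidence interval of the change lay within 1.25-fold either way, and for 74 the estimate was under 10%.

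**Figure D1:**
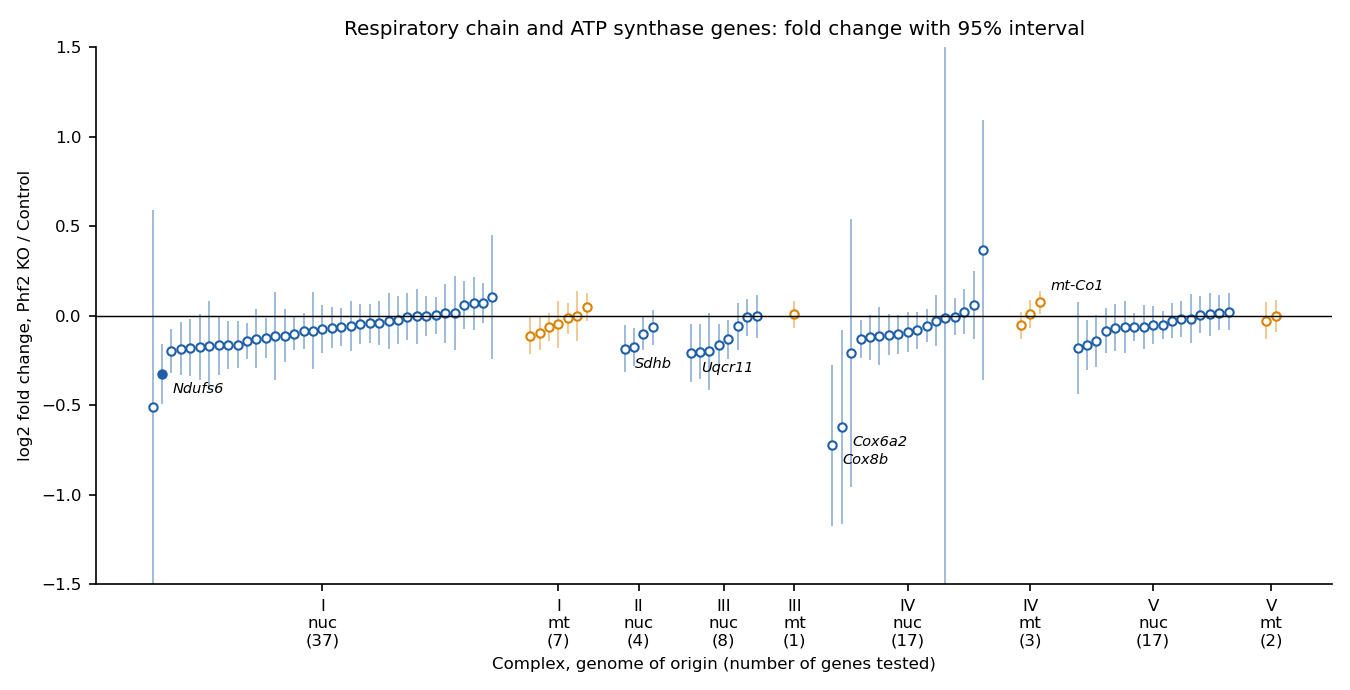
Log2 fold change of *Phf2* KO over Control for the 96 genes tested, with 95% confidence intervals, by complex and genome of origin (nuc, nuclear; mt, mitochondrial); the filled point passed the adjusted p of 0.05, and 2 intervals run past the axis. Most nuclear genes lie a little under 0, the 13 mitochondrial genes lie between −0.11 and 0.07, and only *Ndufs6* is filled.

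Transcript length moved with this lean. Nuclear members are short, with a median effective length of 747 bases against 2712 bases over all genes tested. Among other coding genes over 10 CPM, the median log2 fold change went from −0.06 at up to 500 bases (30 genes) and −0.05 at 500 to 800 bases (161 genes) to 0.03 above 5000 bases (2148 genes). In *Phf2* KO replicate 3, the other genes up to 500 bases had a median deviation of −0.18 on the log2 scale, against 0.04 in replicate 1 and −0.006 in replicate 2. Nuclear members up to 1200 bases over 10 CPM (56 genes) had a median of −0.06, and 82.1% were below 0, against −0.03 and 61.7% of 621 other genes. The 15 nuclear members of 1200 to 2000 bases had a median of −0.11, with 93.3% below 0, against −0.02 and 54.9% of 1365 other genes. With length corrected in each library, 61 of the 96 members were below 0, the median was −0.03, and 2 members passed, *Ndufs6* lower and *mt-Co1* higher (7.08% of all genes in that fit). With the length correction and the block together, 62 were below 0 and 2 passed, *Ndufs6* and *Cox6a2*, both lower.

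**Figure D2:**
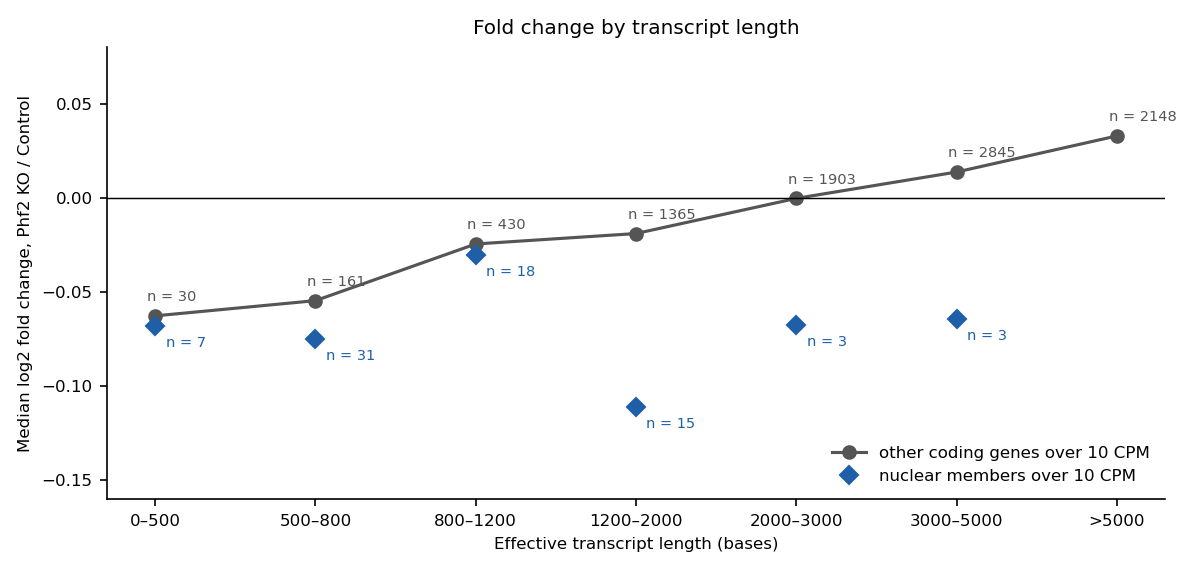
Median log2 fold change of *Phf2* KO over Control by effective transcript length, for nuclear members (diamonds) and other coding genes (circles) with a mean over 10 CPM; n is the number of genes in a bin. The other genes go from −0.06 at up to 500 bases to 0.03 above 5000 bases, and the members of 1200 to 2000 bases, at −0.11, lie farthest under them among the bins with more than 3 members.

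The wells also differed among themselves. The median deviation of the 83 nuclear members tested was 0.05, −0.01 and −0.05 on the log2 scale in the Control libraries and −0.01, −0.08 and −0.12 in the *Phf2* KO libraries. *Phf2* KO replicate 1 thus lay within the range of Control, and without *Phf2* KO replicate 3 no member passed and 67 were below 0. No member passed either when replicate 2 of Control or replicate 2 of *Phf2* KO was left out. Leaving out Control replicate 1 gave 1 (*mt-Nd2*), leaving out Control replicate 3 gave 5, and leaving out *Phf2* KO replicate 1 also gave 5. Over all genes, each of these fits also called fewer than the 1122 (6.48%) called with all 6 libraries, the fewest without Control replicate 2.

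In complex I, 30 of 37 nuclear genes tested and 6 of 7 mitochondrial genes were below 0, with medians of −0.07 and −0.05. *Ndufs6* (ENSMUSG00000021606.8, chr13:73319838-73328542, GRCm38, minus strand) encodes a zinc-binding accessory subunit at the matrix arm. Its level was 33.5, 32.1 and 30.6 CPM in Control and 27.8, 25.5 and 23.3 CPM in *Phf2* KO, so the groups did not overlap. The log2 fold change was −0.33 (SE 0.08, 95% confidence interval −0.50 to −0.16), a level 20.3% lower, with an adjusted p of 0.0219 (edgeR). Leaving out replicate 1 or 2 of Control gave an adjusted p of 0.0838 or 0.0917, leaving out replicate 2 or 3 of *Phf2* KO gave 0.0833 or 0.103, and limma on log2(TPM + 1) gave 0.0771. Its processed pseudogene *Ndufs6b*, with which reads may be shared, was at most 0.65 CPM in each library. *Mrpl36*, the divergent neighbour at this start, had a log2 fold change of −0.10 (adjusted p = 0.575, edgeR).

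*Ndufs4*, an accessory subunit needed for a stable and active complex I, was the next in complex I and lay just outside the threshold. It was measured at 61.2, 60.8 and 55.5 CPM in Control and at 53.5, 50.5 and 50.6 CPM in *Phf2* KO. Its groups did not overlap, and the log2 fold change was −0.20 (SE 0.06, adjusted p = 0.0544, edgeR; 0.0418 with the replicate block). Of the 7 nuclear core subunits, which carry the flavin and iron-sulfur clusters or hold the quinone site, 6 were below 0 (median −0.10) and none passed. *Ndufv1*, the flavin subunit that oxidizes NADH, was at 112, 102 and 104 CPM against 96.5, 95.4 and 96.9 CPM (log2 fold change −0.14, SE 0.05, adjusted p = 0.105, edgeR), again without overlap. Among the 28 other nuclear subunits, 23 were below 0 with a median of −0.07, and *Ndufa8* was the highest at 0.07.

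**Figure D3:**
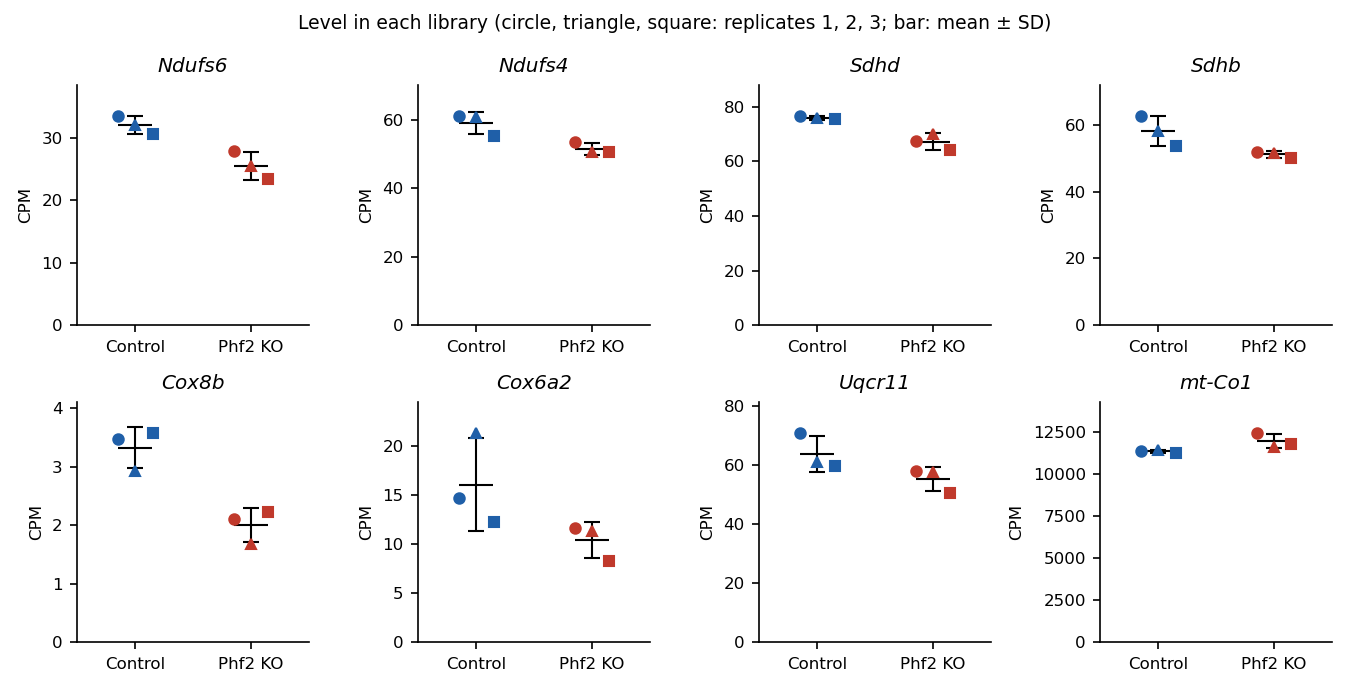
CPM in each library of the 8 members named in the panels, with replicates 1, 2 and 3 as circle, triangle and square and bars for mean ± SD; every axis starts at 0. In the first 7 panels all *Phf2* KO libraries lie under all Control libraries, and for *mt-Co1* they lie above.

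Complex II, succinate dehydrogenase, had log2 fold changes below 0 in all 4 genes, with a median of −0.14, and none passed the threshold. For 3 of the 4 genes (75%) the groups did not overlap, against 12.2% of all genes, counted in the same direction. *Sdhd*, one of the subunits that anchor the complex in the membrane, was at 76.7, 75.8 and 75.4 CPM in Control and at 67.3, 70.2 and 64.2 CPM in *Phf2* KO. Its log2 fold change was −0.18 (SE 0.05, adjusted p = 0.0504, edgeR; 0.0478 with the replicate block), the nearest to the threshold from outside. *Sdhb*, the iron-sulfur subunit, was at 62.6, 58.1 and 53.8 CPM against 51.8, 51.6 and 50.02 CPM, also without overlap (log2 fold change −0.19, SE 0.06, adjusted p = 0.0942, edgeR). *Sdha*, the flavoprotein subunit and the most abundant of the complex, was at 260, 254 and 253 CPM against 244, 243 and 229 CPM. The log2 fold change of *Sdha* was −0.10 (SE 0.04, adjusted p = 0.212, edgeR), while that of *Sdhc*, the other anchor, was −0.06 with overlapping groups. Summed over the 4 genes, complex II was 521, 505 and 497 TPM (a level per transcript length) in Control and 464, 476 and 457 TPM in *Phf2* KO. The groups of this sum did not overlap, a difference of −8.18% with p = 0.1 in the two-sided exact permutation test, the smallest p that 3 against 3 allows, and 0.3 after Benjamini-Hochberg adjustment over 9 sums.

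In complex III all 8 nuclear genes were below 0, with a median of −0.15, and none passed. For 3 of the 8 (37.5%) the groups did not overlap, against 12.2% of all genes, counted in the same direction. *Uqcrfs1*, the Rieske iron-sulfur protein, had the smallest p, with 101, 92.9 and 90.4 CPM in Control and 87.9, 84.7 and 81.3 CPM in *Phf2* KO (log2 fold change −0.16, SE 0.05, adjusted p = 0.0912, edgeR; 0.0474 with the block). *Uqcr11*, a small subunit, was at 70.7, 61.0 and 59.6 CPM against 57.9, 57.4 and 50.4 CPM (−0.21 on the log2 scale, SE 0.07, adjusted p = 0.131, edgeR; 0.0417 with the block). *Uqcrb*, which lies near the ubiquinone site, overlapped between the groups, with a log2 fold change of −0.20 (adjusted p = 0.132, edgeR, and 0.0417 with the block). Of 16 alternative settings with all 6 libraries, the block was the only 1 in which *Uqcrfs1*, *Uqcr11* or *Uqcrb* passed. In TPM *Uqcrb* was 267, 240 and 224 in Control and 138, 204 and 212 in *Phf2* KO, so its lowest TPM was in *Phf2* KO replicate 1, whose CPM of 56.6 was the highest of that group. By contrast, *Uqcrh* and *Uqcrc2* had log2 fold changes of −0.01 and −0.004. The mitochondrial *mt-Cytb*, which holds both quinone sites, was at 4090, 4440 and 4261 CPM against 4381, 4297 and 4178 CPM, with overlapping groups and a log2 fold change of 0.01 (SE 0.03, adjusted p = 0.945, edgeR). The nuclear sum of complex III was 1958, 1844 and 1789 TPM against 1706, 1746 and 1685 TPM, without overlap (−8.13%, p = 0.1 in the exact permutation test, 0.3 adjusted). In CPM this sum was 749, 707 and 680 against 692, 657 and 631, with overlap (p = 0.2, exact permutation test).

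In complex IV, 14 of 17 nuclear genes tested were below 0 (median −0.09) and none passed. The largest differences were in 2 of the muscle isoforms, *Cox8b* and *Cox6a2*, and the next was the pseudogene *Cox6c2*, higher in *Phf2* KO (log2 fold change 0.37). *Cox8b* was low, at 3.47, 2.92 and 3.57 CPM in Control and 2.11, 1.68 and 2.23 CPM in *Phf2* KO. Its groups did not overlap, and the log2 fold change was −0.72 (SE 0.21, 95% confidence interval −1.17 to −0.27, adjusted p = 0.056, edgeR). The adjusted p was 0.0494 with the block and 0.0482 with exactTest. *Cox8b* passed in 4 of 16 alternative settings with all 6 libraries. No fit with 1 library left out called it (adjusted p 0.0964 to 0.188, edgeR). *Cox6a2* was at 14.7, 21.4 and 12.2 CPM against 11.7, 11.4 and 8.35 CPM, without overlap but with a wide spread in Control. Its log2 fold change was −0.62 (SE 0.23, adjusted p = 0.194, edgeR). *Cox6a2* passed in 3 of 16 alternative settings with all 6 libraries, among them the block (adjusted p = 0.0101) and DESeq2 (0.00681), while exactTest gave 0.0557. With 1 library left out it passed only without Control replicate 3 (adjusted p = 0.0359, edgeR). *Cox7a1*, at 0.72, 0.88 and 1.43 CPM against 0.93, 0.88 and 0.81 CPM, overlapped (log2 fold change −0.21, SE 0.35, adjusted p = 0.823, edgeR).

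The partners used in most tissues were far more abundant and differed less. *Cox8a*, at 135, 129 and 130 CPM in Control and 127, 128 and 117 CPM in *Phf2* KO, had a log2 fold change of −0.08 (adjusted p = 0.382, edgeR). *Cox6a1* had −0.09 (adjusted p = 0.39, edgeR) and *Cox7a2* −0.03 (adjusted p = 0.881, edgeR), both with overlapping groups. As a share of the summed TPM of its pair, *Cox8b* made up 3.77, 3.34 and 4.03% in Control and 2.47, 1.95 and 2.82% in *Phf2* KO. These shares did not overlap (3.71 ± 0.35% against 2.41 ± 0.44%, SD, n = 3), with p = 0.1 in the exact permutation test and 0.467 after adjustment over 7 pairs or sets. *Cox6a2* made up 9.56, 14.1 and 8.07% against 7.88, 8.27 and 6.46% of its pair, with overlap (p = 0.2, exact permutation test, 0.467 adjusted). *Cox7a1* made up 2.12, 2.89 and 4.50% against 2.72, 2.85 and 2.49%, also with overlap (p = 0.7, exact permutation test, 0.817 adjusted).

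**Figure D4:**
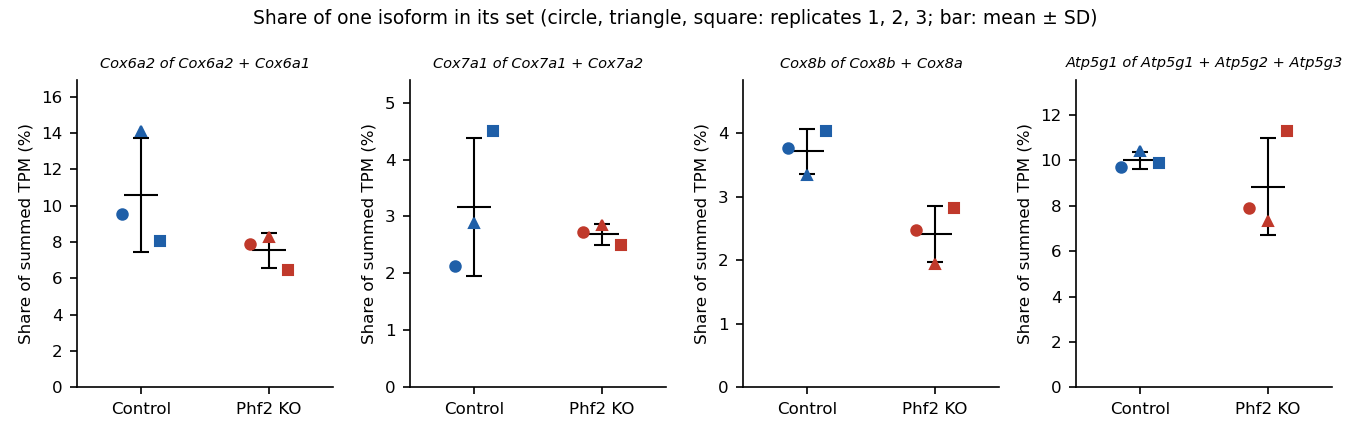
Share of 1 isoform in the summed TPM of its pair or set in each library, with replicates 1, 2 and 3 as circle, triangle and square and bars for mean ± SD; axes start at 0. Only for *Cox8b* do the groups not overlap, at 3.34 to 4.03% in Control and 1.95 to 2.82% in *Phf2* KO.

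Other isoforms were at the edge of detection. *Cox4i2*, the lung and hypoxia isoform of subunit 4, *Cox6b2* and *Cox8c*, which are testis isoforms, *Ndufa4l2*, a hypoxia-induced paralog of *Ndufa4*, and the pseudogene *Ndufa11b* had too few counts to be tested, with at most 0.39 CPM in each library and *Cox8c* at 0 in all 6. Their shares of the pairs with *Cox4i1*, *Cox6b1* and *Ndufa4* were at most 0.18%. *Cox7b2* passed the filter at 0 to 0.28 CPM (log2 fold change −0.01, SE 0.96), and *Cox7b2*, *Cox8b*, *Cox7a1*, *Ndufs6b* and *Cox6c2* were the tested members with the lowest counts. Of the subunits found in most tissues, *Cox4i1*, at 765 TPM in Control the most abundant nuclear gene of complex IV, had a log2 fold change of −0.06 (adjusted p = 0.535, edgeR), and *Ndufa4*, at 0.06 (adjusted p = 0.778, edgeR), was among 3 nuclear genes above 0, with *Cox6c* and the pseudogene *Cox6c2*. *Cox7a2l*, which joins complexes III and IV, was at −0.01.

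In complex V, 13 of 17 nuclear genes tested were below 0, with a median of −0.05, and none passed. *Atp5b*, the catalytic beta subunit and the nuclear member with the highest level (1339 ± 38.3 TPM in Control, SD, n = 3), was at 1207, 1209 and 1136 CPM in Control and 1148, 1147 and 1133 CPM in *Phf2* KO. These groups overlapped, and the log2 fold change was −0.05 (SE 0.04, adjusted p = 0.502, edgeR). *Atp5a1*, the alpha subunit, was at 689, 693 and 672 CPM against 653, 644 and 668 CPM without overlap, with a log2 fold change of −0.06 (SE 0.04, adjusted p = 0.383, edgeR). The c subunit of the rotor ring comes from 3 genes that encode the same mature protein. *Atp5g1* had the smallest p of the complex, at 63.3, 57.5 and 59.98 CPM against 58.9, 51.8 and 50.7 CPM with overlap (log2 fold change −0.16, SE 0.06, adjusted p = 0.173, edgeR; 0.0427 without *Phf2* KO replicate 1). *Atp5g2* and *Atp5g3* had log2 fold changes of −0.02 and −0.05. The share of *Atp5g1* in the TPM of the 3 genes was 9.69, 10.4 and 9.88% against 7.92, 7.35 and 11.3% with overlap (p = 0.4, exact permutation test). Its share of their counts was 13.8, 14.03 and 14.2% against 13.5, 12.6 and 12.9% without overlap (p = 0.1, exact permutation test). The read-through *Atp5o* gene (ENSMUSG00000116933.1) held no count in any library of the matrix but 291 to 308 TPM in the tables of single libraries. No comparison used it alone, but it is part of the nuclear TPM sum of complex V given below. Without it that sum differed by −4.01%, with overlap. *Atp5o* itself, the stalk subunit OSCP, had a log2 fold change of −0.02 (adjusted p = 0.9, edgeR).

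In TPM, the 13 mitochondrial mRNAs were the most abundant members apart from *mt-Nd3*, which lay under the nuclear *Atp5b* (1339 TPM in Control). *mt-Co1*, the catalytic subunit of complex IV, was the highest at 15895 TPM in Control, followed by *mt-Atp6* (8757), *mt-Cytb* (8051), *mt-Co2* (7405), *mt-Nd1* (6946) and *mt-Atp8* (6807), and *mt-Nd3* was the lowest at 1121 TPM. Together they made up 3.39, 3.58 and 3.47% of all counts in Control and 3.60, 3.45 and 3.47% in *Phf2* KO. These shares overlapped (3.48 ± 0.10% against 3.50 ± 0.08%, SD, n = 3, p = 0.8 in the two-sided exact permutation test). All 13 confidence intervals lay within 1.25-fold, 9 of 13 log2 fold changes were below 0, and their median was −0.02. The library kit selects polyadenylated RNA, so these levels also depend on the tails of the mitochondrial transcripts, and mitochondrial rRNAs made up only 0.0814 to 0.0907% of counts.

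*mt-Co1* was at 11378, 11427 and 11252 CPM in Control and 12427, 11625 and 11804 CPM in *Phf2* KO, without overlap. Its log2 fold change was 0.07 (SE 0.03, adjusted p = 0.172, edgeR), and it passed only with the length correction (adjusted p = 0.0449), not with that correction and the block together (0.142). The other complex IV mRNAs, *mt-Co2* and *mt-Co3*, had −0.05 and 0.01 and overlapped. Of the membrane-arm subunits of complex I, *mt-Nd2* had the lowest log2 fold change at −0.11 (SE 0.05, adjusted p = 0.22, edgeR; 0.0214 without Control replicate 1), with 1750, 2036 and 1897 CPM against 1795, 1740 and 1728 CPM and so overlapping groups. *mt-Nd4l* had −0.10, *mt-Nd1* −0.06, *mt-Nd6* −0.05, *mt-Nd5* −0.02, *mt-Nd3* −0.003 and *mt-Nd4* 0.05, all with overlap. In complex V, *mt-Atp6* had −0.002 and *mt-Atp8* −0.03. *mt-Atp8* with *mt-Atp6* and *mt-Nd4l* with *mt-Nd4* overlap on the same strand, and *mt-Nd6* lies opposite to the other 12, so these values are uncertain where counting could split or mix reads, since the strand setting of the counting is not given in the sources used here.

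In summed counts read against the nuclear genes, the mitochondrial mRNAs together stood slightly higher in *Phf2* KO. The 13 mitochondrial mRNAs had 3.94, 4.34 and 4.30 counts for each count of the 89 nuclear members in Control and 4.41, 4.37 and 4.47 in *Phf2* KO. These ratios did not overlap (4.19 ± 0.22 against 4.42 ± 0.05, SD, n = 3), with p = 0.1 in the exact permutation test. Control replicates 2 and 3 lay near the lowest *Phf2* KO value, and replicate 1 well under it. This ratio was not corrected for transcript length. *mt-Co1* alone held 33.7, 31.8 and 32.4% of the counts of the 13 mRNAs in Control and 34.4, 33.7 and 34.1% in *Phf2* KO. It was the only mitochondrial member with all *Phf2* KO libraries above all Control libraries, and its part in the ratio was not tested. The nuclear members made up 0.861, 0.825 and 0.807% of counts in Control and 0.815, 0.790 and 0.775% in *Phf2* KO, with overlap (p = 0.2, exact permutation test). In summed TPM the nuclear genes of complex I were 5037, 4876 and 4839 against 4798, 4633 and 4652, without overlap (−4.54%, p = 0.1, exact permutation test, 0.3 adjusted). In summed CPM they were 2205, 2136 and 2103 against 2116, 2008 and 1986, with overlap (p = 0.2, exact permutation test). The nuclear sums of complexes IV and V were −3.10% and −3.80% apart with overlap (p = 0.4 and 0.2, exact permutation test), and the mitochondrial sums of complexes I, III, IV and V differed by −2.27, 1.31, 2.87 and 0.11%, all with overlap.

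**Figure D5:**
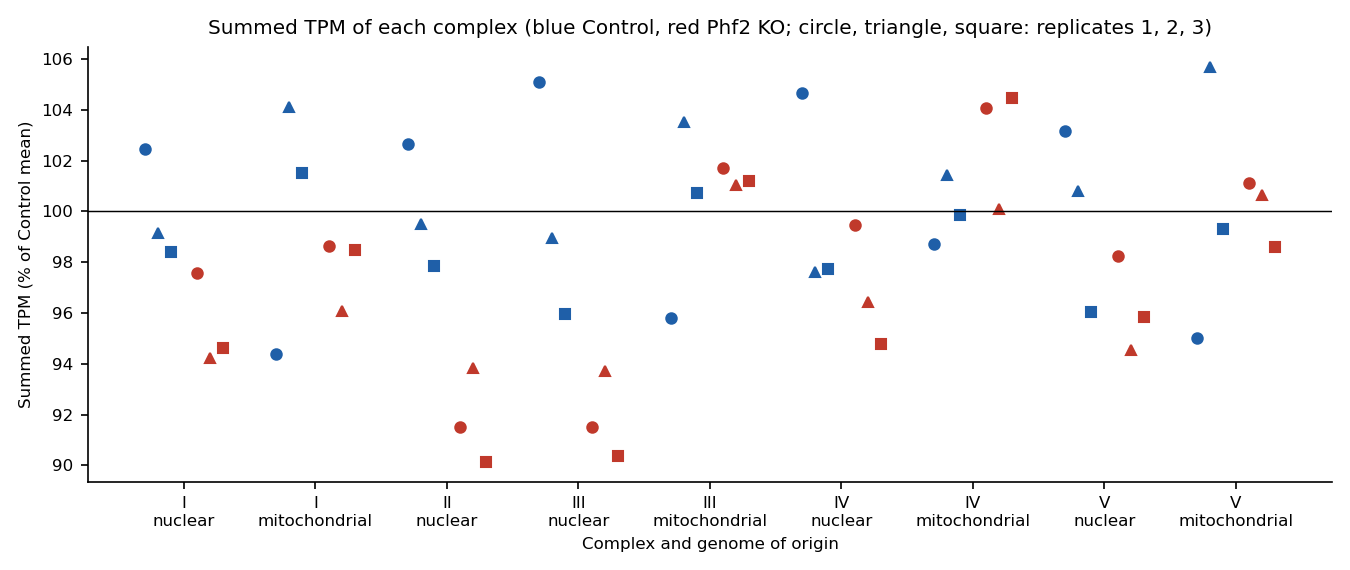
Summed TPM of each complex, nuclear and mitochondrial genes apart, in each library as a percentage of the Control mean (blue, Control; red, *Phf2* KO; circle, triangle and square, replicates 1, 2 and 3; the axis does not start at 0). The nuclear TPM sums of complexes I, II and III do not overlap between the groups, and the other 6 sums do. In CPM (not drawn) those of complexes I and III overlap too.

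Genes around the respiratory chain were read from lists set beside the members. Of 215 genes tested in these lists, 3 passed the threshold, all lower, against 6.48% of all genes tested (3.26% lower). *Coq8a*, which is needed to make coenzyme Q, the electron carrier between complexes I or II and III, was at 37.4, 35.0 and 30.5 CPM in Control and 22.8, 23.4 and 22.3 CPM in *Phf2* KO, far from overlap (log2 fold change −0.59, SE 0.08, adjusted p = 0.000643, edgeR). It passed without each library in turn, and its adjusted p was 0.300 with limma on log2(TPM + 1). It was 1 of 17 electron carrier genes tested, 11 of which were below 0 (median −0.10). *Higd1a*, a hypoxia-induced protein that binds complex IV, was at 24.1, 27.3 and 23.7 CPM against 17.9, 20.2 and 19.5 CPM (−0.38 on the log2 scale, SE 0.09, adjusted p = 0.0154, edgeR). It was 1 of 24 assembly and associated factors of complex IV tested, 17 of which were below 0 (median −0.10). The adjusted p of *Higd1a* (edgeR) was 0.0976 without Control replicate 2, and 0.0608 or 0.0585 without replicate 1 or 3 of *Phf2* KO. *Mrps27*, of the mitochondrial ribosome that translates the 13 mRNAs, was at 23.9, 24.5 and 24.2 CPM against 19.9, 19.4 and 18.2 CPM (−0.34 on the log2 scale, SE 0.08, adjusted p = 0.0161, edgeR). Its adjusted p was 0.076 when Control replicate 2 was left out, and 0.0554 or 0.0741 when replicate 2 or 3 of *Phf2* KO was.

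Of the 78 genes of the mitochondrial ribosome, 57 were below 0 with a median of −0.06, near that of the nuclear members (−0.07). The 18 genes of the citric acid cycle and pyruvate dehydrogenase had a median of 0.002, with 9 below 0 and none past the threshold. None passed among 16 assembly factors of complex I (median 0.01), 4 of complex II (−0.02), 6 of complex III (0.02) and 4 of complex V (−0.08), 32 genes of mitochondrial transcription, RNA processing and translation (−0.02) and 5 subunits outside the symbol rule (0.005). No regulator of respiratory genes passed out of 12 tested by the edgeR test. An unadjusted p under 0.05 was found for 1 of the 12, against 19.4% of all genes. That gene was *Pprc1*, a coactivator of NRF1 (log2 fold change −0.18, SE 0.05, adjusted p = 0.0745, edgeR). It was at 68.5, 71.3 and 66.8 CPM in Control and 57.9, 64.2 and 60.9 CPM in *Phf2* KO. Its groups did not overlap, as was so for 12.2% of all genes in the same direction. *Ppargc1a*, the coactivator best known for raising mitochondrial genes in muscle, was low, at 2.49, 4.16 and 4.93 CPM against 3.53, 2.80 and 2.73 CPM with overlap (log2 fold change −0.35, SE 0.24, adjusted p = 0.481, edgeR). *Ppargc1b* had −0.21, *Perm1* −0.10, *Esrra* −0.06, *Ppard* −0.03, *Gabpb1* −0.01, *Gabpa* 0.01, *Nrf1* 0.02, *Yy1* 0.04 and *Gabpb2* 0.05, and *Esrrg*, at most 0.52 CPM, had −1.13 (SE 1.04). *Ppara* and *Esrrb* had too few counts to be tested.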

How the data were processed

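The authors prepared poly(A)-selected directional libraries, aligned paired-end reads with HISAT2 to the mm10 genome, and counted genes by StringTie; versions, the annotation and the strand setting are not given in the sources used here. The deposited matrix holds estimated counts (StringTie values from coverage, as whole numbers, not scaled by library size). Each library's own deposited table holds TPM (signal on a scale set by the authors for that library alone), of which the rows of reference genes were used, and coverage, a score used only to check the count unit. Tests of counts were run with edgeR 4.0.16 in R 4.3.3: filterByExpr (minimum count 10), TMM, and the quasi-likelihood test over all 17310 genes with Benjamini-Hochberg adjustment. The study's methods use exactTest, here an alternative beside DESeq2 1.42.0 and limma 3.58.1. TPM sums and shares were compared by two-sided exact permutation tests. The effective length of a gene was taken from its CPM over its TPM. Libraries with the same replicate number deviated together across 10923 genes (correlations 0.183, 0.345 and 0.234, where genes are not independent replicates). The labels give these numbers without saying what they pair. The main fit and the permutation tests left the libraries unpaired, and the replicate block was run as an alternative. Named genes were *Phf2*, all mitochondrial members, the isoform pairs, members past or near the threshold, the highest and the smallest p in each complex, members that failed the filter, called genes of related lists and all regulators; others were added after their values were seen. The members, lists and tests were chosen with earlier results of these data known. The tests were checked on simulated data. Coordinates of genes are those of GENCODE M21 (GRCm38) and promoter windows are from RefSeq; a window was printed whole only where it held no GENCODE exon.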

Additional observations from a re-analysis of the deposited data

How the results depend on the processing

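Of the 17310 genes tested, 1122 passed the threshold, against 158 and 178 with limma on TPM with a pseudocount of 1 and of 0.1, 472 at an adjusted p under 0.01, and 468 to 1039 when 1 library was left out, the lowest without Control replicate 2. Of the 96 members, 1 passed, against 2 with exactTest and with DESeq2's size factors, 3 with upper-quartile scaling, with no filter and with a minimum of 1 CPM, 4 with counts divided by 4, 5 with DESeq2, 8 with the replicate block, 0 on either TPM scale and at an adjusted p under 0.01, and 0 to 5 when 1 library was left out. With the length correction and with that correction and the block together, both chosen after seeing the data, 2 passed. It stayed at 1 with limma-voom, library size alone, TMM on nuclear genes and counts summed per symbol. Members below 0 numbered from 61 (length correction) to 83 (upper quartile) of 96 over the settings with the same 96 members and 6 libraries. Related lists held 1 to 3 genes past the threshold when 1 library was left out, against 3. The difference in the *Cox8b* share of its pair was −1.30 percentage points in TPM and −0.87 in counts. The other isoform shares, the mitochondrial share and the sums of complexes moved by less than 1 SD of the replicates under each alternative run. The nuclear sums of complexes I and III overlapped between the groups in CPM, though not in TPM. The block changed no other call among the members and lists named here. The causes of these changes were not tested. The 3 wells in each group limit what could be seen, since a permutation test of 3 against 3 cannot go below 0.1.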
